A study of Rattus norvegicus with 16 samples.

Results

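The genes described here encode splicing factors and ribonucleoproteins: the Snrp and Lsm proteins of the small nuclear ribonucleoproteins (snRNPs), the SF3b subunits, the SR proteins (Srsf) and the heterogeneous nuclear ribonucleoproteins (hnRNPs). They were chosen by name, from the array features whose annotation gave exactly 1 gene symbol beginning with Snrp, Srsf, Hnrnp, Sf3 or Lsm and a digit. This gave 37 genes on 61 features, of 6241 named genes and 12559 tested units in all. The units are the named genes and each cDNA feature with no symbol or with several. They comprised 3 Snrp and 6 Lsm genes, 6 SF3b genes, 8 SR genes and 14 hnRNP genes. All 37 had enough values to be tested. A further 9 features that listed several symbols were left out of the 37 genes and stayed among all units.

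The RNA came from neural stem and progenitor cells of the neocortex of Sprague-Dawley rat embryos at embryonic day 14.5, expanded as a monolayer in N2 medium with fibroblast growth factor 2 (FGF-2, 10 ng/ml). Cells kept in FGF-2 served as the common reference on each of the 16 arrays, and the other dye carried RNA of 1 of 4 groups of 4 arrays each. Cells had been kept without added factor (a change that the series describes as starting differentiation) for 12 h or for 6 d, or had received daily platelet-derived growth factor AA (PDGF-AA, 10 ng/ml) for 12 h or for 6 d. All groups shared the earlier growth in FGF-2, and the labels do not spell out whether FGF-2 was withdrawn from the cultures given PDGF-AA. Dyes were swapped on 2 arrays of each group, and array numbers follow the order of deposition and only name an array.

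The values are log2 ratios to the FGF-2 cells, with every array centred on its median, so that 0 is the middle of all features and not an absolute level. The labels leave the direction of the ratio unstated, and it is taken here to be the sample divided by the reference, as is likely. The ground for this was that 29 of 31 measured genes of the cell cycle and DNA replication lay lower after 12 h without factor. Because the reference RNA was in every hybridisation, its own spread is left out of the error, and the 4 groups' ratios share it. The 4 arrays of a group rested on at least 2 RNA preparations, and the labels do not tell which arrays share one, so p-values measure a spread that may be partly technical. Adjusted p-values are those of limma with Benjamini-Hochberg adjustment over all 12559 units, and a gene is said to have fallen or risen where its adjusted p was under 0.05. Errors are standard errors of the fit (SE, n = 4 arrays per group). Beside the genes described here, the cell cycle list was lower in 29, 19, 24 and 4 of 31 genes without factor at 12 h, with PDGF-AA at 12 h, without factor at 6 d and with PDGF-AA at 6 d, with medians of -1.44, -0.85, -0.92 and -0.39. Of all units, 11.7%, 3.01%, 13.7% and 3.22% were called in the same order, in either direction. Since this list set the sign of the ratio, its direction at 12 h without factor is not a separate result. The part of the cell cycle list in the values of the splicing genes was not tested. In bulk RNA, fewer cells of a type and less RNA per cell cannot be told apart.

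Splicing removes introns from pre-mRNA in the spliceosome, which is assembled from snRNPs, each a small nuclear RNA with a ring of Sm or Lsm proteins and particle-specific proteins. SR proteins bind mostly exonic enhancers and recruit the spliceosome, while hnRNPs coat the nascent transcript and often oppose or redirect splice site choice. In the developing cortex, neurons and glia use different splice forms of many genes, and changes in the balance of such regulators accompany neurogenesis.

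After 12 h without factor, 8 of the 37 genes fell and 0 rose (21.6%), against 11.7% of all units tested, of which 6.48% fell and 5.21% rose. Those that fell were Lsm2, Snrpa1, Sf3b3, Srsf1, Srsf2, Srsf3, Hnrnpa3 and Hnrnpab. The median of the 37 genes was -0.14, against -0.001 over all units. After 6 d without factor, 10 genes fell and 2 rose (32.4%), against 13.7% of all units, of which 6.73% fell and 6.99% rose. Lsm2, Sf3b3 and Hnrnpab were called at both times; Snrpb2, Lsm7, Lsm8, Sf3b4, Sf3b5, Hnrnpll and Hnrnpm fell in the 6 d comparison, and Srsf5 and Hnrnpa2b1 rose in it. The median at 6 d was -0.16, against 0.004 over all units. With PDGF-AA for 12 h, 1 gene fell, Hnrnpa3, against 3.01% of all units, and the median was -0.05. With PDGF-AA for 6 d limma called 0 genes, against 3.22% of all units, and the median was -0.09. At an unadjusted p under 0.05, 9 genes passed there, 8 of them lower and 1 higher, against 15.5% of all units. In that group 31 of the 37 genes lay below 0, against 49.2% of all units. The genes below 0 numbered 24 at 12 h without factor, 24 with PDGF-AA at 12 h and 27 at 6 d without factor. Of all units, 50.2%, 50.3% and 49.1% lay below 0 in those groups.

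These counts rested on single arrays and on the model. Without the dye term 4 genes were called at 12 h without factor, the calls of Sf3b3, Srsf1, Hnrnpa3 and Hnrnpab being lost, and 3 at 6 d without factor. With the first number of the array titles, which the labels do not explain, as a further term, 3 were also called at 6 d. No factor 6 d array 1 is alone in carrying its number, so this term takes it out of the group's value. For this group the fit is thus not separate from leaving out that array. Either way the 9 calls lost at 6 d were those of Lsm2, Lsm7, Lsm8, Sf3b3, Sf3b4, Sf3b5, Hnrnpab, Hnrnpll and Hnrnpm. Without no factor 12 h array 1, 2 or 3 the count at 12 h went from 8 to 4, 5 or 5. Without no factor 6 d array 1 or 3 the count at 6 d went from 12 to 3. Over all units, calls at 6 d went from 1723 to 990 without the dye term and to 1123 with the title number. They went to 1012 or 1018 without no factor 6 d array 1 or 3. In these fits the splicing genes' share was close to that of all units, so their excess at 6 d was lost. At 12 h, calls over all units went from 1468 to 830 without the dye term. They went to 907, 740 or 797 without no factor 12 h array 1, 2 or 3. There the splicing genes' share stayed above that of all units. Lsm2, Snrpa1, Srsf3 and Hnrnpa3 at 12 h, and Snrpb2, Srsf5 and Hnrnpa2b1 at 6 d, kept their call in all 16 fits that leave out 1 array.

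**Figure D1:**
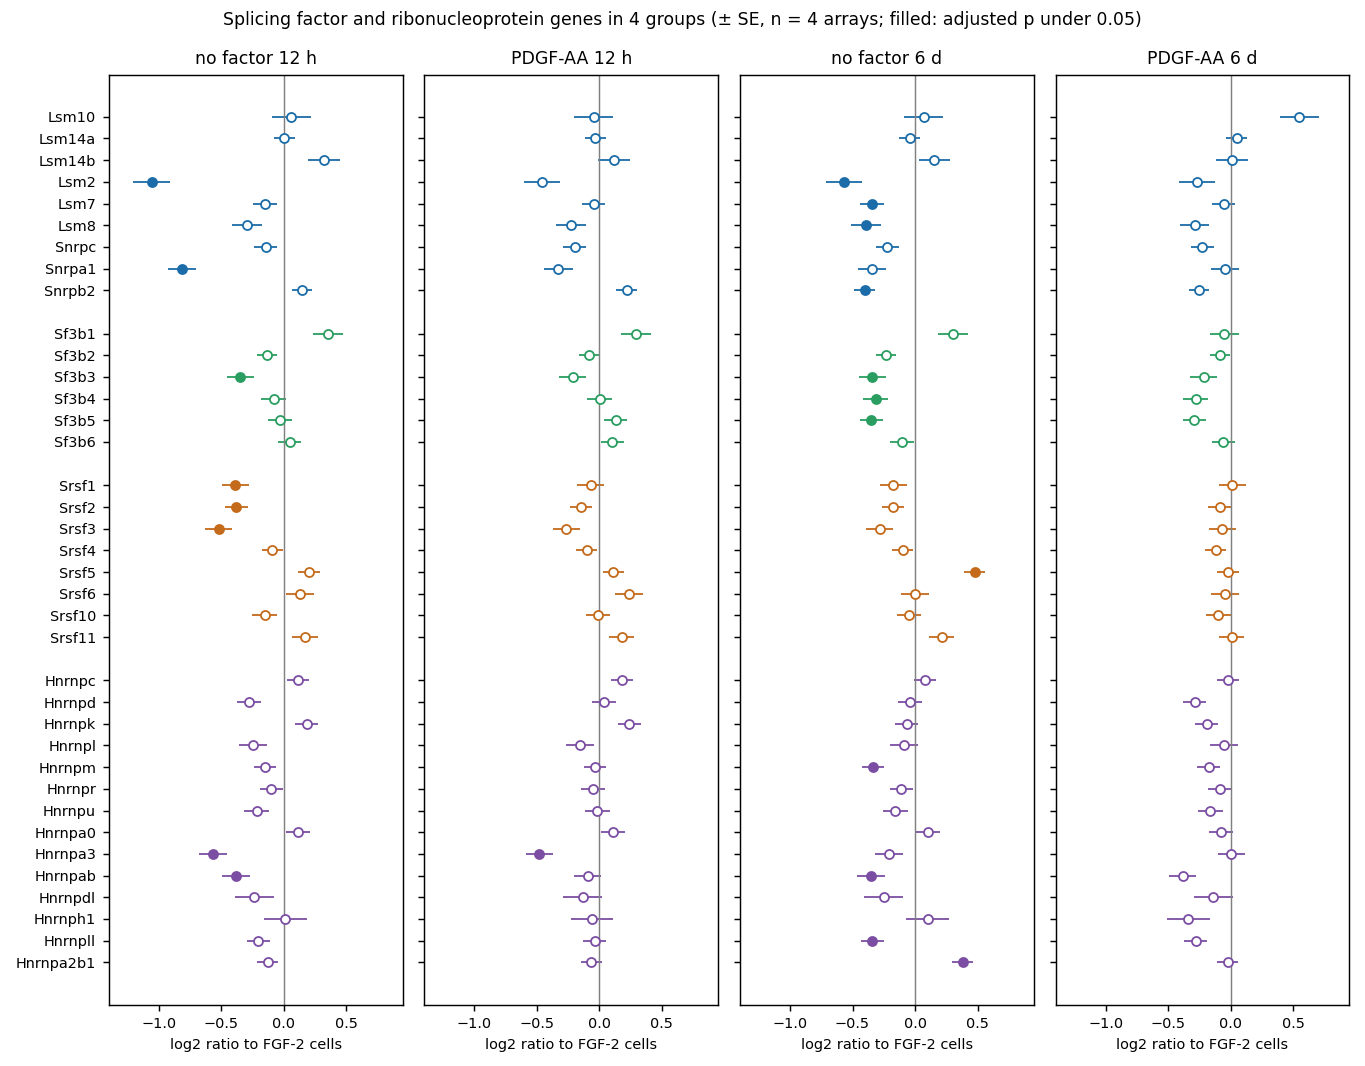
Log2 ratio to FGF-2 cells of each of the 37 genes in the 4 groups; points are the fitted means of 4 arrays, bars their standard errors, colours the classes (Snrp and Lsm, SF3b, SR, hnRNP) and filled points an adjusted p under 0.05. The 8 genes called at 12 h without factor all lie left of 0, the lowest being Lsm2 at -1.06, while at 6 d without factor Srsf5 and Hnrnpa2b1 lie right of 0.

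Of the Snrp and Lsm genes, 2 of 9 fell after 12 h without factor (22.2%, against 11.7% of all units) and 4 of 9 after 6 d without factor (44.4%, against 13.7%), with class medians of -0.15 and -0.34. Not all of these proteins serve the spliceosome: Lsm10 belongs to the U7 snRNP of histone mRNA processing, and Lsm14a and Lsm14b are cytoplasmic proteins of translational control. Below, the values of a group are given with the 2 arrays that carried the sample in Cy5 first and the 2 arrays in Cy3 after them. Lsm2, a subunit of the ring on the end of U6 snRNA and of the cytoplasmic ring that takes part in mRNA decay, had log2 ratios of -1.28, -1.61, -1.03 and -0.31 at 12 h without factor and of -0.82, -0.64, -0.44 and 0.05 with PDGF-AA. At 6 d its ratios were -0.81, -0.30, -0.34 and -0.82 without factor and -0.38, -0.39, -0.04 and -0.27 with PDGF-AA. The ratio was below 0 on all but 1 array of PDGF-AA at 12 h, and the groups at 12 h overlapped through 1 high array without factor. Lsm2 fell by 1.06 ± 0.15 at 12 h without factor (2.08-fold lower, adjusted p = 0.000124), the lowest mean of all 37 genes. It fell by 0.57 ± 0.15 at 6 d without factor (adjusted p = 0.0132), a call lost without no factor 6 d array 1 or 3. With PDGF-AA it lay at -0.46 ± 0.15 at 12 h (adjusted p = 0.11) and at -0.27 ± 0.15 at 6 d (adjusted p = 0.40).

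Snrpa1, the U2 snRNP protein A′, had ratios of -1.19, -0.81, -0.77 and -0.48 at 12 h without factor and of -0.74, -0.29, -0.31 and 0.02 with PDGF-AA. The 6 d ratios were -0.42, -0.19, -0.32 and -0.45 without factor and 0.07, -0.04, 0.01 and -0.21 with PDGF-AA. Every array of 12 h without factor lay below every array of both 6 d groups, and 1 array with PDGF-AA at 12 h lay within its range. Snrpa1 fell by 0.82 ± 0.11 at 12 h without factor (1.76-fold lower, adjusted p = 0.000139). It lay at -0.33 ± 0.11 with PDGF-AA at 12 h (adjusted p = 0.16), at -0.34 ± 0.11 at 6 d without factor (adjusted p = 0.0555) and at -0.04 ± 0.11 with PDGF-AA at 6 d (adjusted p = 0.90).

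Snrpb2, the U2 snRNP protein B″ that partners U2-A′ on the same RNA, had another course. Its ratios were 0.24, 0.30, 0.06 and -0.02 at 12 h without factor and 0.25, 0.48, 0.13 and 0.02 with PDGF-AA. After 6 d the values were -0.25, -0.24, -0.32 and -0.80 without factor and -0.14, -0.05, -0.40 and -0.42 with PDGF-AA. Every array of either 6 d group lay below every 12 h array. Snrpb2 fell by 0.40 ± 0.08 at 6 d without factor (1.32-fold lower, adjusted p = 0.0031), and lay at -0.25 ± 0.08 with PDGF-AA at 6 d, which did not pass. Between 12 h and 6 d without factor it fell by 0.55 ± 0.12 (adjusted p = 0.0234), a comparison in which 2 of the 37 genes passed (5.41%) against 1.87% of all units. That call was lost without no factor 6 d array 1, 3 or 4 and without any of the 4 no factor 12 h arrays, as well as without the dye term and with a term for the title number. With PDGF-AA the difference between 6 d and 12 h was -0.47 ± 0.12 (adjusted p = 0.072). Its 2 features gave -0.42 and -0.39 at 6 d without factor.

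Lsm8, the subunit that makes the U6 ring nuclear, had ratios of -0.30, 0.07, -0.20 and -0.74 at 12 h without factor and of -0.06, 0.01, -0.48 and -0.39 with PDGF-AA. Its 6 d values were -0.24, -0.22, -0.31 and -0.79 without factor and 0.09, -0.58, -0.33 and -0.34 with PDGF-AA. Most arrays were below 0 and the 4 groups overlapped. Lsm8 fell by 0.39 ± 0.12 at 6 d without factor (adjusted p = 0.0353), a call lost without no factor 6 d array 1, 3 or 4. Lsm7, of the same rings, fell by 0.35 ± 0.10 there (adjusted p = 0.0209), a call lost without no factor 6 d array 1 or 3. Lsm10 had the highest mean of the class over the 4 groups, 0.16. With PDGF-AA at 6 d it lay at 0.55 ± 0.16 with ratios of 0.96, 1.04, -0.22 and 0.43, of which the Cy5 arrays were the higher, and it did not pass.

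The SF3b complex is the part of the U2 snRNP that holds the branch point. Of the 6 subunits named Sf3b, 1 fell at 12 h without factor (16.7%, against 11.7% of all units) and 3 fell at 6 d (50.0%, against 13.7%). All of these calls, at both times, were lost without the dye term. The class medians were -0.06 and -0.27. Phf5a, a further subunit that the name rule does not reach, is counted below with the other spliceosome proteins. It fell by 0.34 ± 0.09 at 12 h (adjusted p = 0.0188) and by 0.56 ± 0.09 at 6 d without factor (adjusted p = 0.000453). With PDGF-AA at 6 d it fell by 0.38 ± 0.09 (adjusted p = 0.0265). The call at 6 d without factor was kept in all 16 fits that leave out 1 array, those at 12 h and with PDGF-AA in 13. The calls at 12 h and with PDGF-AA were also lost without the dye term. Sf3b3, a scaffold subunit, had ratios of -0.61, -0.53, -0.25 and -0.01 at 12 h without factor and of -0.53, -0.39, -0.01 and 0.07 with PDGF-AA. Ratios at 6 d were -0.63, -0.14, -0.34 and -0.26 without factor and -0.08, -0.17, -0.25 and -0.37 with PDGF-AA. Within each 12 h group the Cy5 arrays were the lower, and all groups overlapped. Sf3b3 fell by 0.35 ± 0.11 at 12 h (adjusted p = 0.0456) and by 0.34 ± 0.11 at 6 d without factor (adjusted p = 0.0447), close to the threshold both times. The call was kept in 9 of 16 fits that leave out 1 array at 12 h and in 8 of 16 at 6 d. At both times it was lost without no factor 12 h array 1, 2 or 3, no factor 6 d array 2 or 3, or PDGF-AA 12 h array 2 or 4, and at 6 d also without no factor 6 d array 1. Its 2 features gave -0.35 and -0.35 at 12 h.

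Sf3b5, a small subunit, had ratios of 0.17, 0.17, -0.41 and -0.05 at 12 h without factor and of 0.43, -0.04, 0.10 and 0.03 with PDGF-AA. On the 6 d arrays it had -0.16, -0.30, -0.40 and -0.55 without factor and -0.26, -0.07, -0.49 and -0.34 with PDGF-AA. All arrays of both 6 d groups were below 0, and those of 6 d without factor overlapped the 12 h group through 1 low array. Sf3b5 fell by 0.35 ± 0.09 at 6 d without factor (adjusted p = 0.0166), a call lost without no factor 6 d array 1, 3 or 4. Sf3b4, which carries RNA recognition motifs, had ratios of -0.54, -0.18, -0.14 and -0.40 at 6 d without factor and of -0.10, -0.36, -0.41 and -0.25 with PDGF-AA. At 12 h they were -0.36, -0.21, 0.12 and 0.11 without factor and -0.28, -0.02, 0.21 and 0.10 with PDGF-AA, with the Cy5 arrays the lower. Sf3b4 fell by 0.31 ± 0.10 at 6 d without factor (adjusted p = 0.0412). The call was lost without no factor 6 d array 1, 2 or 3, no factor 12 h array 1, 3 or 4, PDGF-AA 12 h array 2, or PDGF-AA 6 d array 2. The 6 subunits named Sf3b did not share a course. Sf3b1, which contacts the branch point, had the highest mean of the class over the 4 groups, 0.23, and did not pass in any group.

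Of the 8 SR genes, 3 fell and 0 rose at 12 h without factor (37.5%, against 11.7% of all units), and 0 fell and 1 rose at 6 d (12.5%, against 13.7%). The 3 were Srsf1, the founding SR protein, Srsf2, which was first described as SC35, and Srsf3, the smallest of the family. Their upstream sequences are shown because these 3 genes fell together, and so were chosen after their values were seen. They are the 250 bases before the transcription start in the RefSeq rat assembly GRCr8, chr10:73336248-73336497 on the plus strand, chr10:102554142-102554391 on the minus strand and chr20:7093335-7093584 on the plus strand. Capitals mark the CCAAT box, CCAAT or ATTGG.
Srsf1: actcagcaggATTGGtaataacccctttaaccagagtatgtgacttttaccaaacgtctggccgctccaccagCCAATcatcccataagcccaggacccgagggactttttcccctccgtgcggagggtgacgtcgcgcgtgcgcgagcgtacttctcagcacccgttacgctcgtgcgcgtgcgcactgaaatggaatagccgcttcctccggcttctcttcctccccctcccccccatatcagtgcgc
Srsf2: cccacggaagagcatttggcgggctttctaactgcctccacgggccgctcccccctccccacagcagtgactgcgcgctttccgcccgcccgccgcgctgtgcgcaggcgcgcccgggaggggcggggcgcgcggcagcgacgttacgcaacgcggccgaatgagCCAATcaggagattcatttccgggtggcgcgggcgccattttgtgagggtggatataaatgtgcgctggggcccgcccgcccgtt
Srsf3: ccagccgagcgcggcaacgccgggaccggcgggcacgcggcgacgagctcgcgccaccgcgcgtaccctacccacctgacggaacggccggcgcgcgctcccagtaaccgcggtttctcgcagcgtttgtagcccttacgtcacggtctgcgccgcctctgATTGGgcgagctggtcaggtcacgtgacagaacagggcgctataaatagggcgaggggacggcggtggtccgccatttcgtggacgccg
The boxes begin 240 and 177 bases before the start in Srsf1, 85 in Srsf2 and 89 in Srsf3. Over both strands, CCAAT was in 16 of the 34 of these genes that had a window in that table, and in 34.02% of all 33469 windows. A GC box, GGGCGG, was in 22 of 34, and in 30.47% of all windows. An E2F site, TTTGGCGC, TTTCCCGC, TTTCGCGC or TTTGCCGC, was in 1 of 34, and in 1.733% of all windows. A gene was counted where any of its windows held the motif, so the shares of genes and of windows have unlike units. Motifs can share letters: the last bases of TTTCCCGC and TTTGCCGC can begin CCGCCC, the GC box on the other strand. A match describes the sequence only.

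Srsf3 had ratios of -0.73, -0.65, -0.50 and -0.20 at 12 h without factor and of -0.54, -0.41, -0.16 and 0.04 with PDGF-AA. By 6 d the ratios were -0.41, -0.23, -0.29 and -0.20 without factor and 0.29, -0.20, -0.21 and -0.14 with PDGF-AA. It was below 0 on all arrays without factor, and the groups overlapped. Srsf3 fell by 0.52 ± 0.11 at 12 h without factor (1.43-fold lower, adjusted p = 0.004). Its 3 features gave -0.54, -0.54 and -0.48.

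Srsf1 had ratios of -0.65, -0.45, -0.41 and -0.04 at 12 h without factor and of -0.30, -0.21, -0.07 and 0.30 with PDGF-AA. The 6 d ratios were -0.19, -0.10, -0.16 and -0.25 without factor and 0.29, -0.19, 0.05 and -0.11 with PDGF-AA. Of the 12 h arrays without factor, 3 lay below all arrays of the other groups and the fourth lay among them. Srsf1 fell by 0.39 ± 0.11 at 12 h without factor (adjusted p = 0.0254), a call lost without no factor 12 h array 1, 2 or 3.

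Srsf2 had ratios of -0.28, -0.26, -0.50 and -0.48 at 12 h without factor and of -0.07, -0.20, -0.02 and -0.30 with PDGF-AA. After 6 d the values were -0.16, -0.02, -0.09 and -0.44 without factor and 0.10, -0.05, -0.00047 and -0.41 with PDGF-AA. The 12 h arrays without factor spread least, and 1 array of each other group reached into their range. Srsf2 fell by 0.38 ± 0.09 at 12 h without factor (adjusted p = 0.0099), a call lost without no factor 12 h array 1. Its 3 features gave -0.53, -0.56 and -0.06, so the fall rested on 2 of them.

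Srsf5, an SR protein with paired RNA recognition motifs, went the other way. Its ratios were 0.52, 0.42, 0.43 and 0.53 at 6 d without factor and 0.01, -0.18, -0.14 and 0.22 with PDGF-AA. At 12 h they were 0.11, 0.06, 0.50 and 0.13 without factor and 0.11, 0.10, 0.06 and 0.18 with PDGF-AA. The 6 d arrays without factor lay above all arrays with PDGF-AA at either time, and 1 array of 12 h without factor fell within their range. Srsf5 rose by 0.48 ± 0.09 at 6 d without factor (1.39-fold higher, adjusted p = 0.0012), and lay at 0.20 ± 0.09 at 12 h without factor. It is read from 1 feature. Of the class means over the 4 groups, the lowest was that of Srsf3, -0.28, and the highest that of Srsf5, 0.19.

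**Figure D2:**
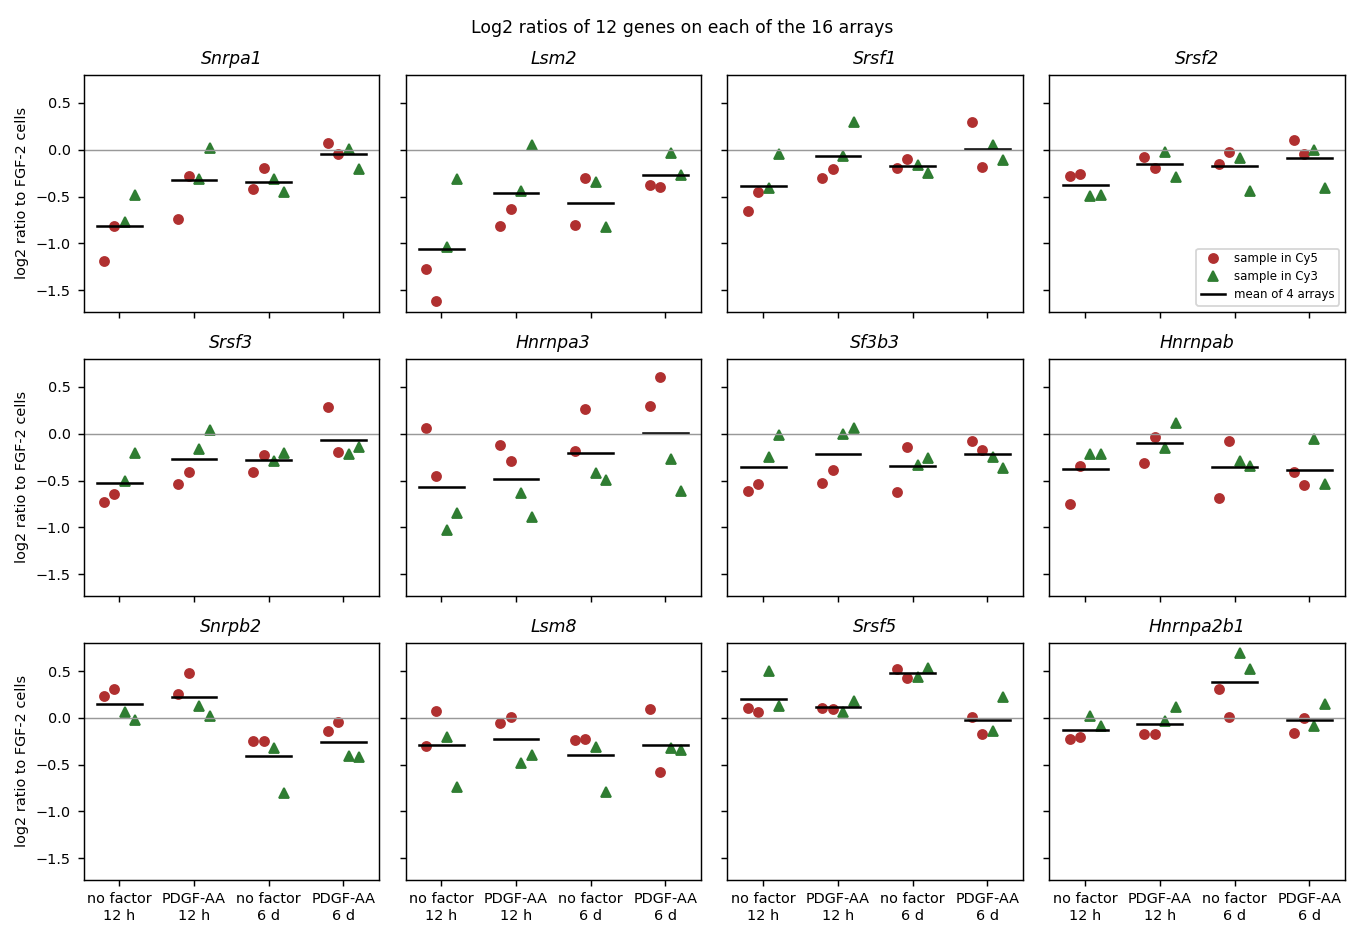
Log2 ratios of 12 genes on each of the 16 arrays, by group; circles are arrays with the sample in Cy5, triangles arrays with the sample in Cy3 and lines the means of 4 arrays. Srsf5 at 6 d without factor lies between 0.42 and 0.53, Snrpb2 is below 0 on every 6 d array, and Hnrnpa3 differs between dyes in each group.

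Of the 14 hnRNP genes, 2 fell and 0 rose at 12 h without factor (14.3%, near the 11.7% of all units), and 3 fell and 1 rose at 6 d without factor (28.6%, against 13.7%). With PDGF-AA at 12 h 1 fell, against 3.01% of all units. The class median was -0.18, -0.04, -0.10 and -0.15 without factor at 12 h, with PDGF-AA at 12 h, without factor at 6 d and with PDGF-AA at 6 d. Hnrnpa3, of the A/B family that packages transcripts and serves their transport, had ratios of 0.06, -0.45, -1.03 and -0.84 at 12 h without factor and of -0.12, -0.29, -0.63 and -0.89 with PDGF-AA. Its 6 d values were -0.19, 0.27, -0.42 and -0.49 without factor and 0.29, 0.60, -0.27 and -0.61 with PDGF-AA. In every group both Cy3 arrays were below both Cy5 arrays, so the mean is a balance of 2 dye orientations. Hnrnpa3 fell by 0.57 ± 0.11 at 12 h without factor (1.48-fold lower, adjusted p = 0.0025) and by 0.48 ± 0.11 with PDGF-AA at 12 h (adjusted p = 0.0235). Without a dye term in the fit neither call was kept, and the second was also lost without any of the 4 PDGF-AA 12 h arrays. Its mean over the 4 groups, -0.31, was the lowest of the class, and that of Hnrnpc, a protein that binds uridine tracts of nascent RNA, was the highest, 0.09. A dye effect passed the threshold in 17 of the 37 genes, with a median size of 0.24 over the 37, and in 39.1% of all units, with a median size of 0.24. Over all units, arrays of the same group with opposite dyes correlated at a median of only 0.09. Arrays with the sample in the same dye, of any group, correlated at 0.05 to 0.73.

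Hnrnpab, a single-strand binding protein of the same wider family, had ratios of -0.75, -0.34, -0.22 and -0.21 at 12 h without factor and of -0.31, -0.03, -0.15 and 0.12 with PDGF-AA. Ratios at 6 d were -0.69, -0.08, -0.29 and -0.34 without factor and -0.41, -0.55, -0.05 and -0.53 with PDGF-AA. Nearly all arrays were below 0, and the groups overlapped. Hnrnpab fell by 0.38 ± 0.11 at 12 h (adjusted p = 0.033) and by 0.35 ± 0.11 at 6 d without factor (adjusted p = 0.0447). The first call was lost without any of the 4 no factor 12 h arrays. The second was lost without no factor 6 d array 1, 2 or 3, no factor 12 h array 1, 3 or 4, PDGF-AA 12 h array 1 or 2, or PDGF-AA 6 d array 1 or 2. With PDGF-AA at 6 d its value was -0.39 ± 0.11, as low as without factor, and did not pass.

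Hnrnpll, known for its part in the alternative splicing of the Cd45 transcript in lymphocytes, had ratios of 0.09, 0.09, -0.53 and -0.47 at 12 h without factor and of 0.29, 0.11, -0.16 and -0.39 with PDGF-AA. On the 6 d arrays it had -0.44, -0.12, -0.32 and -0.50 without factor and -0.01, -0.15, -0.37 and -0.59 with PDGF-AA. All 6 d arrays were below 0, while at 12 h the sign followed the dye. Hnrnpll fell by 0.34 ± 0.09 at 6 d without factor (adjusted p = 0.0182), a call lost without no factor 6 d array 1, 3 or 4. Hnrnpm, which binds GU-rich RNA, fell by 0.34 ± 0.09 at 6 d without factor (adjusted p = 0.0164), with -0.79 and -0.58 on the Cy5 arrays and -0.004 and 0.02 on the Cy3 arrays, a call lost without no factor 6 d array 1 or 3.

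Hnrnpa2b1, an abundant protein that binds and carries many neural mRNAs, had ratios of -0.23, -0.21, 0.02 and -0.09 at 12 h without factor and of -0.17, -0.17, -0.04 and 0.11 with PDGF-AA. By 6 d the ratios were 0.31, 0.01, 0.69 and 0.52 without factor and -0.16, -0.003, -0.08 and 0.15 with PDGF-AA. Of the 6 d arrays without factor, 3 lay above all arrays of the other groups. Hnrnpa2b1 rose by 0.38 ± 0.08 at 6 d without factor (adjusted p = 0.0053). Between 12 h and 6 d without factor it rose by 0.51 ± 0.12 (adjusted p = 0.0388), a call lost without no factor 6 d array 1, 2 or 3, any no factor 12 h array, or PDGF-AA 12 h array 2. That call was also lost without the dye term, with arrays scaled to a common spread and with a term for the number in the array titles. Against the FGF-2 cells the rise at 6 d came from 1 of its 3 features, which gave 1.03 where the others gave 0.06 and 0.06. At 12 h the same feature gave 0.42 and the others -0.46 and -0.33, so all 3 were higher at 6 d than at 12 h. Whether the 3 features read the same transcripts was not tested.

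Several features were present for 14 of the 37 genes, and they differed in sign in 5, 3, 5 and 7 of the 14 without factor at 12 h, with PDGF-AA at 12 h, without factor at 6 d and with PDGF-AA at 6 d. Srsf10, an SR-like protein, is an example at 12 h without factor, where its features gave -0.39, 0.29 and -0.36. Rat RNA was read on mouse cDNA, and no probe sequence was compared here.

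**Figure D3:**
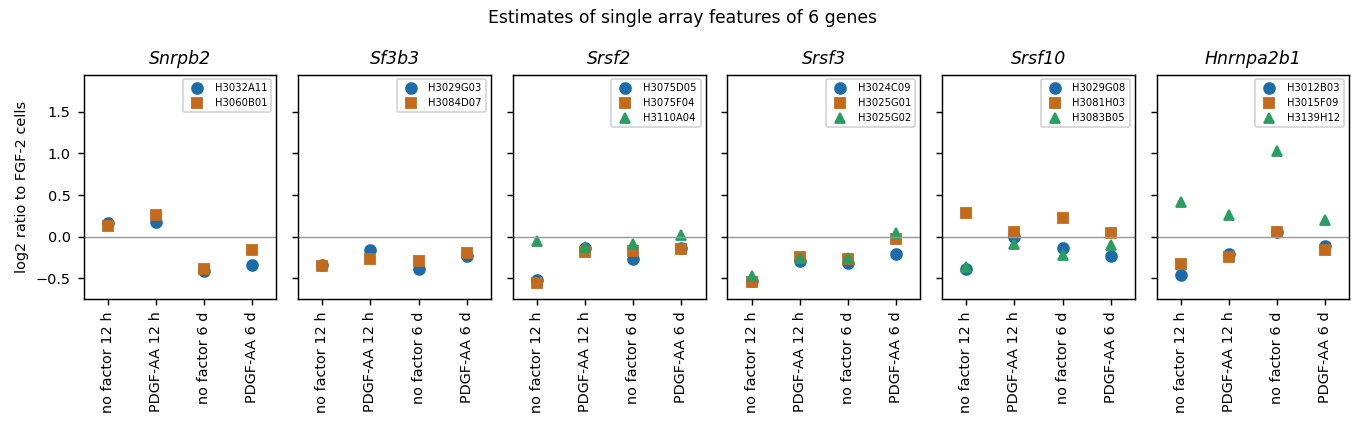
Estimates of the single features of 6 genes that have several, in log2 ratio to FGF-2 cells for the 4 groups; each symbol is 1 cDNA feature. The features of Snrpb2, Sf3b3 and Srsf3 lie close together without factor, those of Srsf3 spread from -0.21 to 0.04 with PDGF-AA at 6 d, and 1 feature of Hnrnpa2b1 reaches 1.03 at 6 d without factor and the others 0.06.

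The direct comparison of PDGF-AA with no factor asks whether the factor alters these genes at a given time, and limma called 0 of the 37 at 12 h and 0 at 6 d. Of all units, 0.0159% and 0.00796% were called, the latter being 1 unit, which became 58 without PDGF-AA 6 d array 4. At an unadjusted p under 0.05, 3 genes passed at 12 h, all of them higher with PDGF-AA, against 5.42% of all units, and 4 passed at 6 d, 2 in each direction, against 8.76%. At 12 h, 28 of 37 genes had an estimate above 0, with a median of 0.08, where 6205 of 12559 units were above 0 with a median of -0.003. The Snrp and Lsm, SF3b, SR and hnRNP medians were 0.06, 0.07, 0.13 and 0.09. Lsm2 was 0.60 higher with PDGF-AA at 12 h (95% interval 0.16 to 1.03, adjusted p = 0.73), and Snrpa1 0.49 higher (0.15 to 0.83, adjusted p = 0.72). At 6 d, 21 of 37 estimates were above 0, with a median of 0.04. Of all units there, 6297 of 12559 were above 0, with a median of 0.0007. Srsf5 and Hnrnpa2b1 had the lowest adjusted p of the 37 genes at 6 d. Srsf5 had a difference of -0.50 (95% interval -0.76 to -0.24, adjusted p = 0.37), and Hnrnpa2b1 had a difference of -0.40 (-0.66 to -0.15, adjusted p = 0.42). The intervals, which are not adjusted for the number of genes, are wide for these 4 genes, and the missed threshold does not show that PDGF-AA left them alike.

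**Figure D4:**
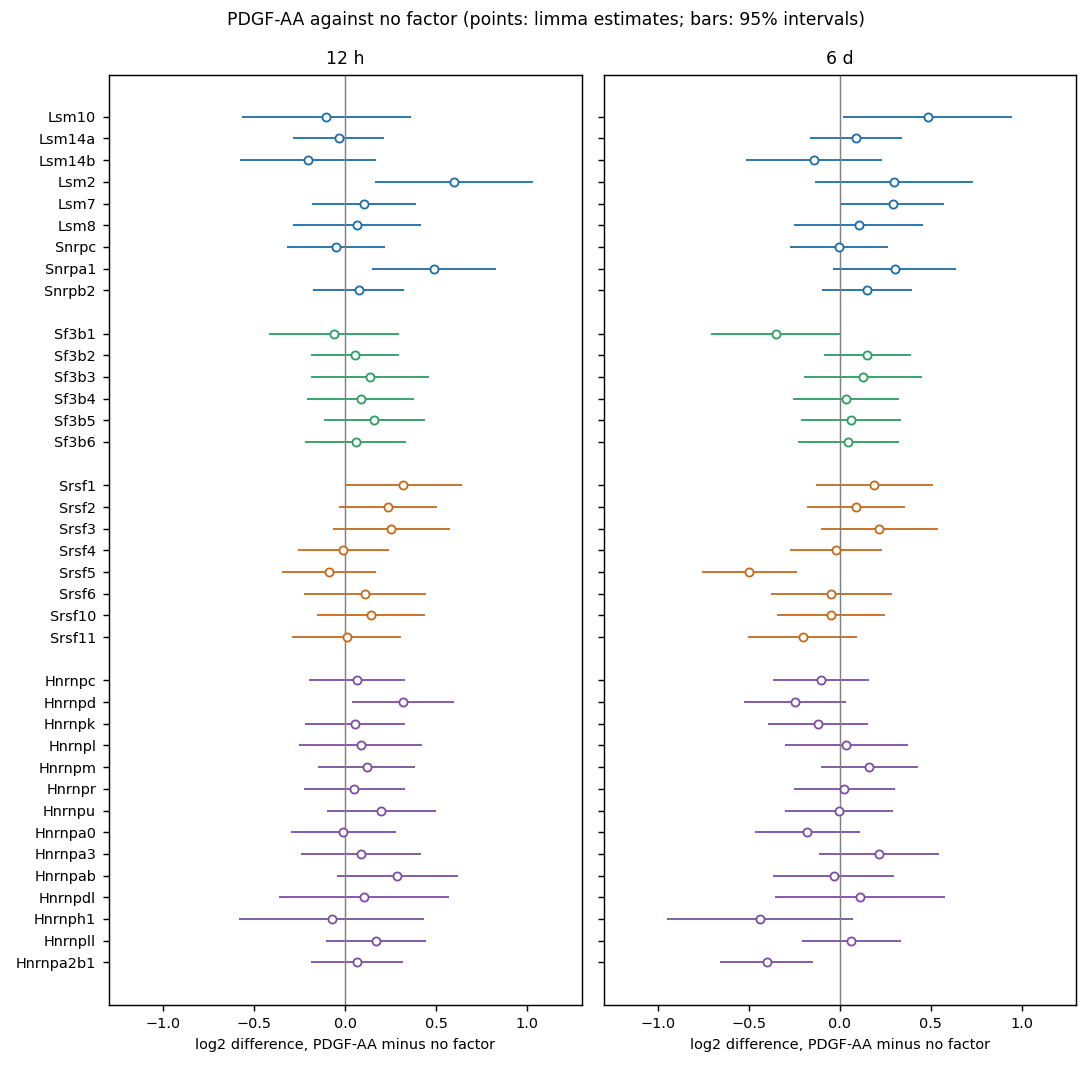
Difference of PDGF-AA minus no factor for each of the 37 genes at 12 h and at 6 d, in log2; points are limma estimates and bars their 95% intervals. At 12 h 28 of 37 points lie right of 0, led by Lsm2 at 0.60, and at 6 d the points lie on both sides, with Srsf5 at -0.50.

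Between 12 h and 6 d with PDGF-AA, limma called 0 of the 37 genes, against 1.07% of all units. At an unadjusted p under 0.05, 6 passed, against 11.3%. The change of the PDGF-AA difference between 12 h and 6 d (the interaction) was called for 0 of the 37 genes and for 0% of all units, with 3 genes and 3.96% of units at an unadjusted p under 0.05. Snrpb2 and Hnrnpa2b1 were called between the times without factor only, each with the losses given above. A difference between the media was not called for either.

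On single arrays, the median over the 6 SF3b genes was -0.03 ± 0.10 (SD, n = 4) without factor and 0.01 ± 0.07 with PDGF-AA at 12 h, and -0.23 ± 0.08 and -0.21 ± 0.10 at 6 d. The median over the SR genes was -0.12 ± 0.08, -0.01 ± 0.13, -0.05 ± 0.10 and -0.06 ± 0.08 in the same order. All 12 h arrays but 1 had an SF3b median above those of all 6 d arrays, while the SR medians of the 4 groups overlapped. No p-value is given for these medians, since the classes were chosen with results known.

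**Figure D5:**
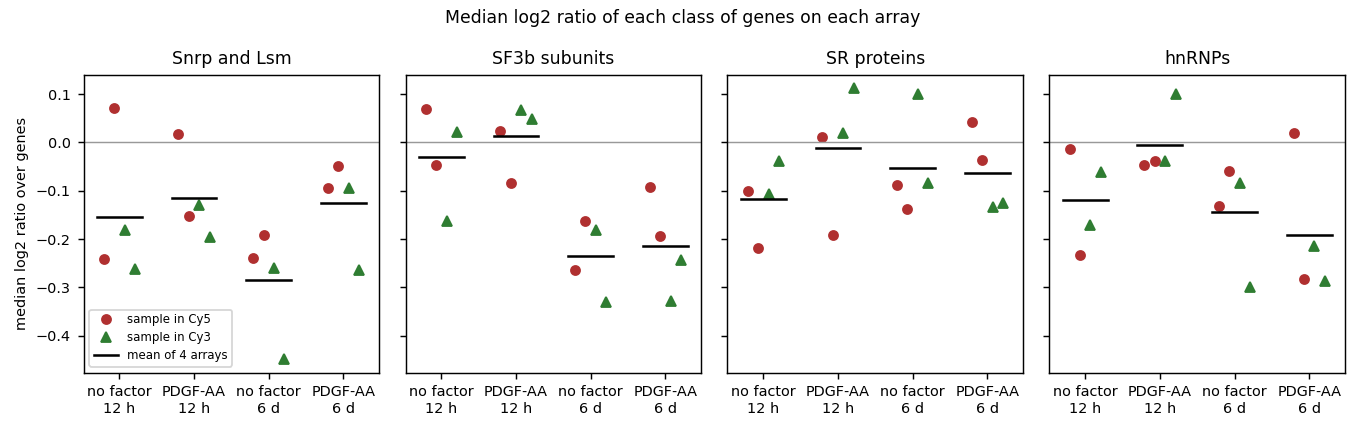
Median log2 ratio over the genes of each class on each of the 16 arrays; circles are arrays with the sample in Cy5, triangles with the sample in Cy3, lines the means of 4 arrays. The SF3b means are -0.03 and 0.01 at 12 h and -0.23 and -0.21 at 6 d, and the SR points of the 4 groups overlap.

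Other genes of the splicing machinery were taken from 5 lists with 198 genes, of which 133 were measured. Without factor, 15 fell and 13 rose at 12 h, and likewise 15 fell and 13 rose at 6 d (21.1% both times, against the 11.7% and 13.7% of all units given above), with medians of -0.02 and -0.01. With PDGF-AA 1 of 133 passed at 12 h (0.752%, against 3.01% of all units), and 5 fell and 1 rose at 6 d (4.51%, against 3.22%). At 12 h without factor, the other splicing regulators (38 measured) had 7 lower and 8 higher, and the SR kinases and SR-related factors (14 measured) had 0 lower and 3 higher. The other spliceosome proteins (57 measured) had 4 lower and 2 higher, snRNP assembly and cap binding (16 measured) 2 lower, and the exon junction and export genes (8 measured) 2 lower. Without factor, the list genes called were thus near balance in direction, where those of the 37 genes called at 12 h without factor were all lower; the difference between the lists was not tested.

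The lowest list genes at 12 h without factor were Mbnl1, a muscleblind splicing regulator, at -0.82 ± 0.11, Kpnb1, the importin beta that brings snRNPs into the nucleus, at -0.76 ± 0.14, and Nxt1, an mRNA export cofactor, at -0.74 ± 0.12. The highest were Clk1, a kinase of SR proteins, at 0.83 ± 0.15, Elavl2, a neuronal RNA-binding protein, at 0.66 ± 0.10, and Ddx17, an RNA helicase, at 0.57 ± 0.12, whose call was lost without no factor 12 h array 2. At 6 d without factor the lowest were Ptbp1, the polypyrimidine tract binding protein of progenitors, at -0.80 ± 0.15, Mbnl1 at -0.64 ± 0.11 and Rbm3, a cold-induced RNA-binding protein, at -0.61 ± 0.14, whose call was lost without no factor 6 d array 1 or 3. The highest at 6 d were Rbm22, which lies at the catalytic centre of the spliceosome, at 1.26 ± 0.12, Mbnl2, a paralogue of Mbnl1 that went the other way, at 0.77 ± 0.12, and Clk1 at 0.75 ± 0.15. Rbm22 had ratios of 1.41, 0.95, 1.26 and 1.44 at 6 d without factor, 0.03, 0.38, 0.71 and 1.21 with PDGF-AA at 6 d, and 0.56, 0.49, 0.58 and 0.57 at 12 h without factor. Its 6 d arrays without factor lay above all those of 12 h, and 1 array with PDGF-AA at 6 d reached their range.

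Ptbp1 had ratios of -1.32, -0.51, -0.86 and -0.52 at 6 d without factor and of -1.11, -0.55, -0.70 and -0.59 at 12 h without factor, where it fell by 0.74 ± 0.15. It was below 0 on every array of both PDGF-AA groups, at -0.39 ± 0.15 at 12 h and -0.41 ± 0.15 at 6 d, and passed in neither. With PDGF-AA at 12 h the gene that passed was Zfr, a zinc finger RNA-binding protein, at 0.33 ± 0.08, a call lost without any of the 4 arrays of that group. With PDGF-AA at 6 d the lowest that passed were Ddx41, a helicase of the spliceosome, at -0.59 ± 0.13, Rbm3 at -0.53 ± 0.14, and Isy1, a spliceosome protein, at -0.45 ± 0.08. The Ddx41 call was lost without PDGF-AA 6 d array 2 or 3 and without the dye term. The Rbm3 call was kept in 2 of 16 fits that leave out 1 array, and the Isy1 call in all 16. A term for the title number leaves PDGF-AA at 6 d 1 array, so that fit cannot weigh these calls. The one that rose was Rbm22, at 0.58 ± 0.12, a call lost without PDGF-AA 6 d array 2 or 4 and without the dye term.

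Markers of cell types moved in the same samples. Of 5 measured astrocyte markers (9 listed), 4 rose at 6 d without factor and 2 with PDGF-AA, with ratios from -0.07 to 3.22 and from -0.25 to 1.52, and at 12 h without factor 1 fell and 1 rose, with ratios from -0.44 to 1.29. Of 4 measured neuron markers (10 listed), 2 rose at 12 h and 2 at 6 d without factor and 1 rose with PDGF-AA at 12 h, with ratios from -0.06 to 0.77 at 12 h and from -0.06 to 1.19 at 6 d without factor. Of 3 measured progenitor markers (7 listed), 1 fell at 12 h and at 6 d without factor and with PDGF-AA at 6 d, and of 3 mesenchymal markers (6 listed) 2 rose at 6 d without factor and 1 with PDGF-AA at 6 d. Only 1 of 8 oligodendrocyte lineage markers was measured, and it rose at 6 d without factor by 1.51. The 2 measured microglia markers (8 listed) lay between -0.27 and 0.20 over the 4 groups and the 2 endothelium markers (6 listed) between -0.09 and 0.15. These are ratios, not levels, so the presence of a cell type could not be checked from them, and the markers' part in the values of the splicing genes was not tested.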

How the data were processed

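Each of 16 mouse cDNA arrays of about 15000 spots was hybridised with 40 µg of labelled total RNA per dye, per the labels' protocols. The authors deposited a table with 1 log ratio for each spot on each array, read here as log2. Its base, background correction, within-array normalisation and spot filter were not given in the sources used here. A different base would scale all values alike. Deposited array medians lay between -0.0053 and 0.0387. No intensities were used, so the signal above background cannot be stated, and precision is set by how many arrays there are.

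Of 15151 features, 8833 had exactly 1 symbol in the chip's mouse annotation. Arrays were centred on their median, and features of 1 symbol were averaged. Units with values on at least 3 arrays of each group (12559) entered a linear model of group and dye in limma 3.58.1 (R 4.3.3) and were tested in 9 comparisons, two-sided, at an adjusted p of 0.05. The script was tested on simulated data. Alternatives were a fit without the dye term, arrays scaled to a common spread, no centring, the first number of the array titles as a term, single features, and leaving out each array.

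The members and gene lists were chosen with earlier results of these data known. Genes were named by a rule: every member passing in any comparison, with array values for up to 4 per class, and the member of lowest and highest mean per class. Of the other splicing lists the 3 lowest and 3 highest passing per group were named, and beside them Phf5a as an SF3b subunit. Upstream sequences are from RefSeq (GRCr8), matched by symbol, which all 37 genes have in the rat table while 0 mouse gene identifiers match, and 34 had a window.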

Additional observations from a re-analysis of the deposited data

Results flagged for a closer look

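In 8 of 148 sets of 4 arrays (each gene in each group, dye effect removed), 1 array stood far from the other 3, where about 7.4 sets (5%) would by chance. In no factor at 12 h these were Hnrnpab on array 2 at -0.66, with the others from -0.31 to -0.25, and Sf3b5 on array 1 at -0.28, with the others from 0.04 to 0.08. With PDGF-AA at 12 h they were Hnrnpdl on array 3 at 0.25, Hnrnpl on array 3 at 0.24, Sf3b6 on array 4 at -0.11 and Srsf5 on array 2 at 0.013. With PDGF-AA at 6 d they were Lsm2 on array 4 at -0.46 and Srsf10 on array 4 at -0.47. The ratios of 2 genes differed between 12 h and 6 d without factor by limma's test: Hnrnpa2b1 by 0.51 and Snrpb2 by -0.55.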

How the results depend on the processing

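Between the alternatives run, no direction of a called gene reversed. Of values of named genes under an alternative, 356 stayed on their side of the threshold in the same direction and 104 lost their call. Of counts and medians over the members, 329 stayed close (a count within 1.5 times, a median within 1 SD between arrays) and 31 moved. The 329 include counts that were 0 with the main settings and stayed 0, so they overstate how stable the other counts were. Without the dye term, 4 members were called at 12 h without factor (8 with it), 0 with PDGF-AA at 12 h (1 with it), 3 at 6 d without factor (12 with it) and 0 between 6 d and 12 h without factor (2 with it). With the title number as a term, 3 were called at 6 d without factor and 0 between 6 d and 12 h without factor, and the median with PDGF-AA at 6 d was -0.208 in place of -0.086. There are 4 such numbers, and the commonest is on 12 arrays but on 1 array of PDGF-AA at 6 d, array 4. The other arrays of PDGF-AA at 6 d carry numbers found in no other group. With the term, the value of that group therefore comes from array 4 alone. The number of no factor 6 d array 1 is on no other array, so the term takes that array out of its group's value. With arrays scaled to a common spread, 1 was called with PDGF-AA at 6 d, 1 between 6 d and 12 h without factor and 1 between 6 d and 12 h with PDGF-AA. The cause of these moves was not tested.

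Leaving out 1 array, members called ranged from 4 to 9 at 12 h without factor, from 0 to 1 with PDGF-AA at 12 h, from 3 to 13 at 6 d without factor, from 0 to 1 with PDGF-AA at 6 d, from 0 to 2 between the times without factor and from 0 to 1 with PDGF-AA. No paired analysis was possible because replicate numbers follow the order of deposition and pair nothing.

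Counts over all units moved too. Without the dye term they were 830 (1468 with it) at 12 h without factor, 156 (378) with PDGF-AA at 12 h, 990 (1723) at 6 d without factor, 191 (404) with PDGF-AA at 6 d, 87 (235) between the times without factor and 38 (135) with PDGF-AA. With the title number they were 1123 at 6 d without factor and 17 (in place of 2) between the media at 12 h. Counts that involve PDGF-AA at 6 d are left out, since the term leaves that group 1 array. Leaving out 1 array, they ranged from 740 (without no factor 12 h array 2) to 1564 at 12 h without factor, from 76 (without PDGF-AA 12 h array 1) to 489 with PDGF-AA at 12 h, from 1012 (without no factor 6 d array 1) to 1802 at 6 d without factor and from 157 (without PDGF-AA 6 d array 2) to 461 with PDGF-AA at 6 d. Between the media they ranged from 0 to 8 at 12 h and from 1 to 58 (without PDGF-AA 6 d array 4) at 6 d, and between the times from 111 to 300 without factor and from 48 to 211 with PDGF-AA. The shares of all units printed beside the members' counts move with them. With common scaling they were 622 with PDGF-AA at 6 d, 0 between the media at 12 h and 2 (in place of 1) at 6 d.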
